A study of Homo sapiens with 56 samples.

Results

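OVCA420, OVCA432 and OVCA433 are 3 established ovarian cancer cell lines, set here against the 7 other lines of the series that were grown in the same base medium, CAOV3, CH1, DOV13, OAW28, OAW42, SKOV3 and TYKNU. All 10 lines grew in DMEM with 10% FBS, and the medium of OAW28 and OAW42, both in the comparison group of 7, also held 0.7 µg/ml insulin. The labels give no treatment, genotype or lineage for any of them. The series measured gene expression in 28 ovarian cancer lines with 2 arrays each, 56 arrays in all, of which the 3 OVCA lines contributed 5 and the 7 other DMEM lines 14. Members were chosen by line name and medium. Replicate 1 of OVCA420 was left out, so that each value of OVCA420 rests on 1 array and each value of the other 9 lines on the mean of 2. The line was the unit of every comparison except an alternative fit of single arrays with the line as a random block. The labels do not say whether duplicate arrays had separate cultures behind them, so the spread between duplicates may be technical, and p-values measure only the spread between these lines.

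Ovarian carcinoma lines differ in how far they keep an epithelial phenotype. In epithelial-mesenchymal transition (EMT), adhesion molecules such as E-cadherin are given up under repressors of the ZEB and SNAI families and vimentin and N-cadherin appear, whereas Grainyhead-like factors such as GRHL2 hold the epithelial state. Serous carcinoma cells also carry marks of their Müllerian origin, the transcription factors PAX8 and WT1 among them.

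Values are log2 intensities after robust multi-array averaging (RMA), so that 1 unit is a doubling of signal. The left-out OVCA420 array had a narrower spread over genes (SD 1.892) than the 19 arrays used (2.216 to 2.298) and correlated with its duplicate at r = 0.614, against 0.994 to 0.996 for the duplicates of the other 9 lines. Array medians were 6.064 to 6.121 in the OVCA lines and 5.986 to 6.104 in the other DMEM lines. A level was read as near background below the 95th percentile of 359 olfactory receptor genes, which lay between 5.25 and 5.64 in the 10 lines. Of 6 epithelial markers, all 6 were above that level in OVCA420, OVCA432 and OVCA433, and 4 to 6 in the other lines. Of 9 leukocyte markers, 2 were above it in each of the 10 lines.

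The comparison asked whether the 3 OVCA lines share an expression pattern that the other DMEM lines lack. No single gene passed the test for such a pattern. Of 18354 genes tested with limma, 0 were higher and 0 lower at a Benjamini-Hochberg adjusted p under 0.05 (0% of genes in either direction), and the lowest adjusted p was 0.959. At an unadjusted p under 0.05 there were 445 genes on the higher side (2.42%) and 423 on the lower side (2.3%), 868 in all (4.73%). In the median gene the SD was 0.12 between the 2 arrays of a line, 0.29 between the 3 OVCA lines and 0.32 between the 7 other lines, and the standard error of the difference was 0.24. The 95% interval of the difference in the median gene thus reached 0.53 log2 units to either side. Genes whose levels in all 3 OVCA lines lay above all 7 other lines numbered 228 (1.24%), and 142 lay below (0.774%). With each array centred on its median the counts were 127 above and 147 below, so which side held more genes depended on the scaling. Many of the 228 were near background: among the 14061 genes above background in 3 or more of the 10 lines, 139 (0.989%) lay above and 117 (0.832%) below. The genes described next were named by their levels and are given as values, since none passed the test.

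FBXO32, also called atrogin-1, codes for an F-box subunit of a ubiquitin ligase known from muscle wasting and had the widest gap of all genes on the higher side. Its level was 8.51 in OVCA420, 7.31 in OVCA432 and 8.17 in OVCA433, against a lowest of 4.71, a median of 5.08 and a highest of 6.41 in the other DMEM lines. The groups did not overlap, and the difference was 2.56 ± 0.41 log2 units (SE, 95% interval 1.64 to 3.49), with an unadjusted p of 0.000109 and an adjusted p of 0.959 by limma. The gene lies on chromosome 8. Among the 18 lines of other media the range ran from 4.98 to 10.39, and OV7 at 8.54, PEO1 at 10.03 and JHOS3 at 10.39 stood above all 3 OVCA lines. When the arrays entered the fit one by one, with the replicate number as a term and the line as a random block, FBXO32 was the only gene called, at 2.55 and an adjusted p of 0.0468 by limma.

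The other genes that did not overlap on the higher side had gaps of 0.34 log2 units or less. The H4 histone gene H4C13 stood at 8.55, 8.75 and 8.63 in the OVCA lines and at 6.17 to 8.21 in the others. DZIP1, a zinc finger gene of primary cilia, stood at 8.40, 8.51 and 8.16 in the OVCA lines and at 6.55 to 7.89 in the others. NAT9, an N-acetyltransferase gene, stood at 8.57, 8.92 and 8.39, against 7.64 to 8.10. DAPP1, an adaptor of B cell signalling, was near background, at 5.34, 4.96 and 5.83 in the OVCA lines and 3.39 to 4.65 in the others.

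UBB, one of the stress-inducible genes that code for polyubiquitin, was split among the OVCA lines. It stood at 12.23 in OVCA420, 8.67 in OVCA432 and 8.50 in OVCA433, against 12.37, 12.50 and 13.17 (lowest, median and highest) in the 7 other DMEM lines. OVCA432 and OVCA433 were thus low by over 3 log2 units, and OVCA420 lay 0.14 below the nearest of the other lines. The arrays of OVCA432 read 8.37 and 8.98, and those of OVCA433 read 8.58 and 8.41. Over all 3 lines the difference was -2.80 ± 0.67 (SE, adjusted p = 0.959), and with OVCA420 left out it was -4.01, the only gene called in that fit (adjusted p = 0.000242 by limma). Of the 18 lines of other media, OV17R had 8.15 and the remaining 17 lay between 11.84 and 13.18. The pseudogene UBBP4 was also lower in OVCA432 and OVCA433 than in OVCA420, with smaller differences. It stood at 11.45, 9.97 and 10.53 in the OVCA lines and 11.69 to 12.33 in the others. It is a near-identical copy of UBB, so probes of one may read transcripts of the other and both levels are uncertain. The start region of UBB is shown because this gene separates OVCA432 and OVCA433 from OVCA420 and from the 7 other DMEM lines. It comprises the 250 bases before and 50 after the RefSeq start (GRCh38.p14, chr17:16381040-16381339, plus strand), and neither AACNGGTT, the motif of Grainyhead-like factors, nor CACCTG, the E-box bound by ZEB and SNAI repressors, was found on either strand, so no base is in capitals.
UBB: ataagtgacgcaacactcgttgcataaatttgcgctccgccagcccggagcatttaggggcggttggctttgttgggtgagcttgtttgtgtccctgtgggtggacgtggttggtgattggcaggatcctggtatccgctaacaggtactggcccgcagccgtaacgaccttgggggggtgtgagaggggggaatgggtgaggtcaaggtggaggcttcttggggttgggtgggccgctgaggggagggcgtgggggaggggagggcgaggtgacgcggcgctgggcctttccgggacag

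On the lower side, GNE had the largest difference of the 15 genes with the lowest p. GNE codes for the enzyme that starts sialic acid synthesis. Its level was 5.02 in OVCA420, 7.18 in OVCA432 and 4.89 in OVCA433, against 7.63, 8.49 and 10.13 (lowest, median and highest) in the other DMEM lines. OVCA420 and OVCA433 were below background, and OVCA432 lay just under the other lines. The difference was -3.06 ± 0.66 (SE, 95% interval -4.54 to -1.59, adjusted p = 0.959). MCTP1, which codes for a membrane protein with C2 domains, stood at 5.12, 5.91 and 4.66 in the OVCA lines and at 6.36 to 9.07 in the others, a difference of -2.43 ± 0.58 (SE). For MCTP1 too OVCA420 and OVCA433 were below background. TYMS, the thymidylate synthase that fluoropyrimidine drugs inhibit, was closely alike in the OVCA lines at 9.52, 9.62 and 9.67, against 10.08, 10.58 and 11.24 in the others. Its difference was -1.07 ± 0.24 (SE, adjusted p = 0.959). In the 18 lines of other media TYMS ranged from 9.25 to 11.75, which covers the OVCA levels. YME1L1, a protease of the mitochondrial inner membrane, NADK2, the mitochondrial NAD kinase, and GABPA, an ETS factor of mitochondrial gene promoters, differed by -0.71 ± 0.13, -1.03 ± 0.23 and -0.76 ± 0.17 (SE). Each of these 3 genes was lower in all 3 OVCA lines than in any of the 7 others, and no adjusted p was under 0.959.

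**Figure D1:**
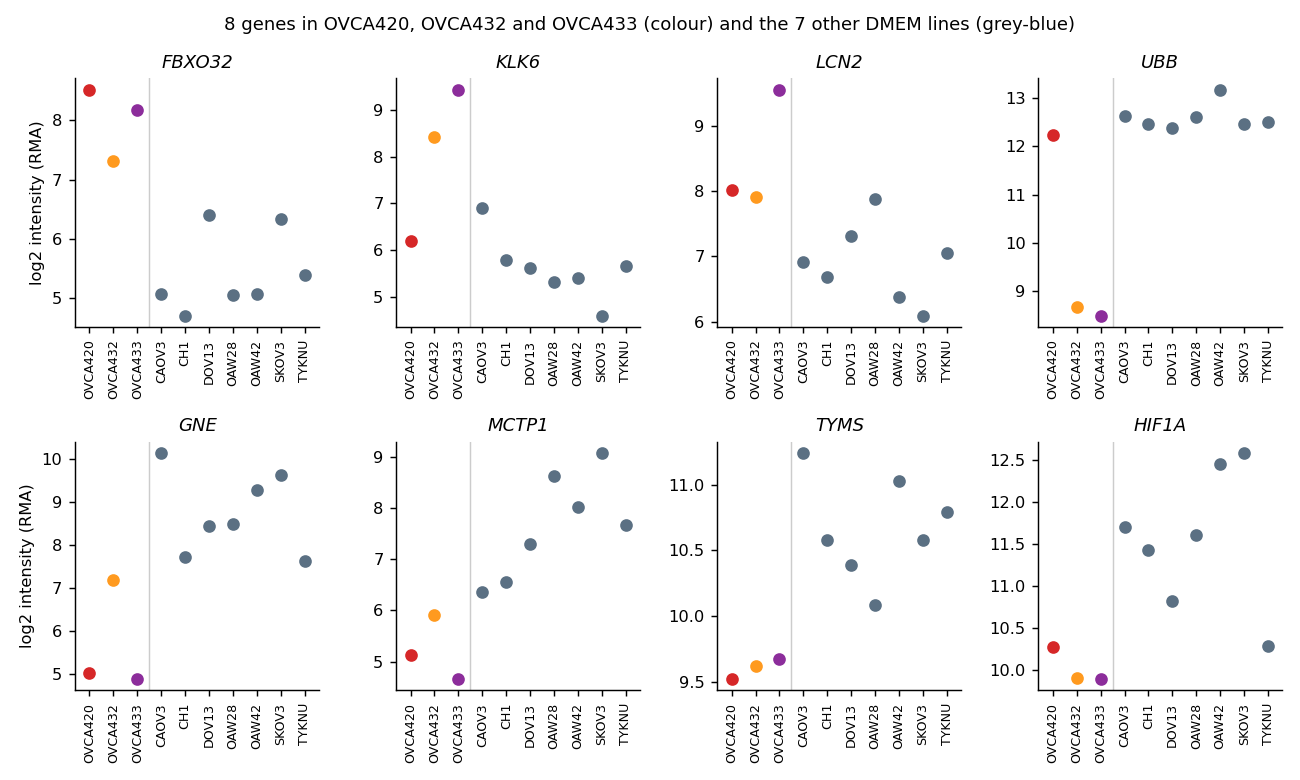
Level of 8 genes (y axis, log2 intensity after RMA) in OVCA420, OVCA432 and OVCA433 and then in the 7 other DMEM lines (x axis, 1 point per line, the mean of its arrays, and 1 array for OVCA420). UBB is at 8.67 and 8.50 in OVCA432 and OVCA433 and at 12.23 in OVCA420, beside 12.37 to 13.17 in the other lines, whereas FBXO32 is above all 7 others in each of the 3.

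The 3 OVCA lines carried epithelial genes but not one common EMT profile. CDH1, which codes for E-cadherin, stood at 9.49, 8.93 and 8.57 in OVCA420, OVCA432 and OVCA433, against 3.88, 7.04 and 9.97 (lowest, median and highest) in the other DMEM lines. CAOV3, OAW28 and OAW42 were in or above the range of the OVCA lines, so the groups overlapped, and the difference was 1.38 ± 1.20 (SE, 95% interval -1.29 to 4.05, adjusted p = 0.961). EPCAM, an epithelial adhesion molecule, was similarly even across the OVCA lines at 10.28, 10.14 and 9.68, against 4.74, 8.92 and 11.93 in the others. GRHL2 stood at 8.45, 7.52 and 7.65, against 4.14, 5.99 and 10.42, with only CAOV3 and OAW28 of the 7 others above the lowest OVCA line. SPINT1, an inhibitor of membrane serine proteases, was nearly level at 8.58, 8.57 and 8.51 in the OVCA lines and ran from 5.88 to 9.34 in the others. VIM, the vimentin gene, separated the OVCA lines from each other. It was 6.05 in OVCA420, 9.92 in OVCA432 and 12.10 in OVCA433, against 4.81, 11.41 and 13.31 in the others, so that OVCA433 carried high vimentin beside CDH1. OAW42, of the 7 others, did so too, with VIM at 10.96 and CDH1 at 9.97. CDH2, which codes for N-cadherin, was 8.06, 10.49 and 8.38 in the OVCA lines and 5.23 to 11.69 in the others. ZEB1 was 5.60, 6.18 and 6.36, against 5.19, 6.80 and 8.60. KRT7 was 11.51, 9.44 and 11.87, against 5.94 to 12.73, and KRT18, the keratin of simple epithelia, 12.74, 11.35 and 13.07, against 9.89 to 13.20. None of the 16 fixed genes passed the test.

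**Figure D2:**
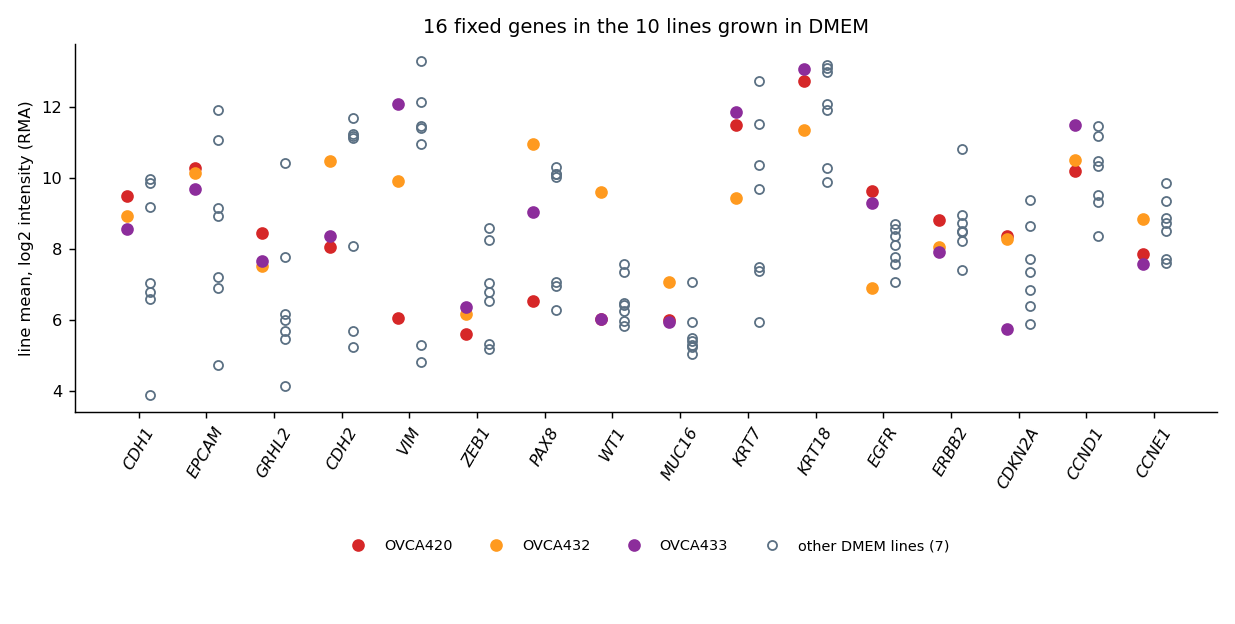
Level of the 16 fixed genes (x axis; y axis, log2 intensity after RMA) in OVCA420, OVCA432 and OVCA433 (filled, left of each pair) and in the 7 other DMEM lines (open, right). CDH1 lies between 8.57 and 9.49 in the OVCA lines within the 3.88 to 9.97 of the others, and VIM spreads from 6.05 to 12.10 over the OVCA lines.

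Counted over gene lists, most epithelial adhesion and keratin genes were higher on average and most mesenchymal cytoskeleton genes lower, with no list holding a called gene (0 called in each of 39 lists). The EMT-inducing transcription factors did not follow: 5 of 8 were higher on average, with a median of 0.10 that was below 0 in 6 of the alternative settings. The study derived its signature from ovarian cancer lines, and which lines were used is not given in the sources used here, so its direction is not taken as independent evidence. Of its 184 measured epithelial genes, 151 were higher on average in the OVCA lines (82.1%, against 52.4% of all genes), with a median difference of 0.38 against 0.01 over all genes. LCN2 and ZC3H12A were the 2 of the 184 that did not overlap on the higher side, a share near the 1.24% of all genes. Of 200 measured mesenchymal genes, 49 were higher (24.5%), the median was -0.23, 6 did not overlap on the lower side (0.774% of all genes), and DZIP1 and SOX12 did not overlap on the higher side (1.24% of all genes). Among adherens and tight junction genes 19 of 21 were higher with a median of 0.43. CLDN7, a claudin, was 8.81, 9.72 and 9.40 in the OVCA lines and 5.04 to 11.10 in the others. All 7 simple keratins had a positive difference (median 0.46). Of desmosome and hemidesmosome genes 10 of 14 were positive (median 0.26), and of stratified keratins 4 of 6 (median 0.08). Without OVCA420 these 2 medians were -0.01 and -0.41. For mesenchymal cytoskeleton genes and cadherins 3 of 12 were positive and the median was -0.53, which moved to -0.05 without OVCA420. VCAN, the matrix proteoglycan versican, was 4.33, 4.61 and 6.56 in the OVCA lines, and of the 7 others 3 were at 4.07 to 5.38 and 4 at 10.19 to 11.80. The median over extracellular matrix genes was 0.04. ANKRD1, a target of the Hippo pathway, was 5.92 in OVCA420, 6.83 in OVCA432 and 11.09 in OVCA433, against 6.26 to 12.77, and the list of Hippo targets had a median of 0.01.

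Most proliferation genes had a slightly lower mean in the OVCA lines. Of 24 genes of proliferation and mitosis, 3 were higher on average and 21 lower, and the median was -0.27, with a range of -0.74 to -0.17 over all alternative settings. TYMS was the only 1 of the 24 whose lines did not overlap, on the lower side, as 0.774% of all genes did. DLGAP5, a mitotic spindle gene on chromosome 14 that the list does not hold, was also lower in all 3 OVCA lines, at 8.15, 8.85 and 8.96, than in any other DMEM line (9.18 to 10.48). CDK1, the mitotic kinase, was 8.06, 8.92 and 8.40, against 8.28 to 9.38. Of 11 ERBB receptor and ligand genes, 10 were positive (median 0.59). EGFR was 9.65 in OVCA420 and 9.30 in OVCA433, above all 7 other DMEM lines (7.06 to 8.71), and 6.90 in OVCA432, below all of them. ERBB3 was even at 7.43, 7.27 and 7.29, against 4.66 to 8.27, and ERBB2 stood at 8.82, 8.06 and 7.91, against 7.41 to 10.81, the highest being SKOV3. CCND1 and CCNE1, which code for G1 cyclins, differed by 0.65 ± 0.63 and -0.56 ± 0.50 (SE), and CDKN2A, the p16 gene, was 8.38, 8.28 and 5.75, against 5.88 to 9.39. ID1 and ID3, targets of BMP signalling, were lower on average by limma's estimate, by -1.61 ± 0.44 and -1.92 ± 0.84 (SE), and overlapped through DOV13 (9.31 for ID1 and 6.80 for ID3). LAMB3, a chain of laminin-332, was 10.74 in OVCA420 and 10.09 in OVCA433 and 6.72 in OVCA432, against 5.40 to 8.21. FADS2, a fatty acid desaturase, was 7.60, 8.98 and 8.42, against 7.96 to 11.28. ALDOC, a glycolytic aldolase, was 5.50, 6.41 and 5.50, against 5.94 to 9.10. KRT5, a basal keratin, was near background at 5.57, 5.00 and 5.54, against 5.96 to 8.76. DSC3, a desmosomal cadherin, was below background at 3.23, 3.09 and 3.55, against 3.57 to 5.92.

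Secreted proteases and inflammatory genes varied by line. KLK6, a secreted kallikrein, was 6.19 in OVCA420, 8.42 in OVCA432 and 9.43 in OVCA433, against 4.60, 5.61 and 6.90 (lowest, median and highest) in the other DMEM lines. OVCA432 and OVCA433 exceeded all 7, and OVCA420 was under CAOV3. The difference was 2.40 ± 0.64 (SE, 95% interval 0.97 to 3.82, unadjusted p = 0.00388, adjusted p = 0.959). PEO1, grown in another medium, was higher than any of them at 11.10. The neighbouring gene KLK5 was 5.55, 8.77 and 10.05 in the OVCA lines, and 10.50 in CAOV3 with the other 6 DMEM lines at 5.49 to 6.67. KLK7 was at 9.17 in OVCA432 alone, with 5.72 in OVCA420 and 5.97 in OVCA433, and KLK10 was 7.33, 8.80 and 7.33 (others 6.42 to 7.76). Of 10 kallikreins, 9 had a positive difference (median 0.29). The 1 of 10 that did not overlap on the higher side, as 1.24% of all genes did, was KLK14, at 5.88, 6.40 and 5.94, against 5.65 to 5.87. LCN2, the iron carrier lipocalin 2, was 8.02, 7.92 and 9.56, against 6.09, 6.91 and 7.88, and the groups did not overlap, with a gap of 0.05 (difference 1.60 ± 0.44, SE). CCL20, a chemokine, was 6.27 and 6.38 in OVCA420 and OVCA432 and 4.26 in OVCA433, against 3.65 to 4.69. The start region of KLK6 is shown because KLK6 had the largest difference of the kallikreins. It lies at GRCh38.p14 chr19:50969542-50969841, minus strand, with the same window as for UBB, and the capitals mark the CACCTG E-box, read on the opposite strand.
KLK6: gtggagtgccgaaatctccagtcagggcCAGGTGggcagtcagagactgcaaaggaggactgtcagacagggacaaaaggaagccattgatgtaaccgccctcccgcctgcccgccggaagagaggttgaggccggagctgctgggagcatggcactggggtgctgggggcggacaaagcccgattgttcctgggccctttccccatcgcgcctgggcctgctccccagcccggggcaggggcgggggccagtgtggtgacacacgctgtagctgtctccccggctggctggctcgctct
Of 14192 RefSeq promoters of the genes tested, 19.6% held CACCTG and 1.49% AACNGGTT. Among the promoters of genes above background whose lines did not overlap on the higher side, 30 of 93 held CACCTG (32.3%) and 1 held AACNGGTT (1.08%). On the lower side 20 of 102 held CACCTG (19.6%) and 2 held AACNGGTT (1.96%). The 14192 promoters include those of genes near background, which the sets of non-overlapping genes leave out, so these shares are over unlike sets. A match says only that these letters are in the window.

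The 3 OVCA lines correlated with each other below the median pair of lines. With each gene centred on its mean over the 28 lines, Pearson's r over all genes was -0.129 between OVCA420 and OVCA432, -0.099 between OVCA420 and OVCA433 and -0.237 between OVCA432 and OVCA433, against a median of -0.044 over all 378 pairs (range -0.332 to 0.587, the highest between HEYC2 and OV56). These are correlations across genes of the same arrays, and are given as a description. HEYC2 and OV56 each hold an array of narrow spread over genes (SD 1.844 and 1.893), and its part in their high r was not tested. OVCA433 was most like DOV13 (0.279) and then HEY (0.236), OVCA432 most like OVCAR3 (0.196) and OAW28 (0.195), and OVCA420 most like PEO1 at only 0.097. Müllerian markers divided them too. PAX8 was 6.54 in OVCA420, 10.95 in OVCA432 and 9.04 in OVCA433, against 6.29, 10.03 and 10.32 (lowest, median and highest) in the other DMEM lines. OVCA432 was thus above all 7, and OVCA420 was among the low lines. WT1 was 9.62 in OVCA432 and 6.02 and 6.03 in OVCA420 and OVCA433, against 5.83 to 7.57. MUC16, the CA-125 gene, was 6.01, 7.07 and 5.95, against 5.04 to 7.07. The median over 14 genes of Müllerian and serous carcinoma markers was 0.53, and it was -0.45 without OVCA432.

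Each OVCA line was therefore set against the 9 other DMEM lines, counting the genes over 2 log2 units beyond all of them. These counts are a description, and the rule was set after the data were seen. OVCA420 had 62 genes above (0.338% of 18354) and 16 below (0.0872%), the highest number above among the 10 lines. OVCA432 had 10 above (0.0545%) and 5 below (0.0272%), and OVCA433 had 14 above (0.0763%) and 0 below. The 7 other lines had 9 to 36 above and 2 to 19 below. With 1 array of each line the counts above were 56 in OVCA420, 8 in OVCA432 and 13 in OVCA433, and 6 to 37 in the 7 others, so that OVCA420 had the most with 1 array of every line too.

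**Figure D3:**
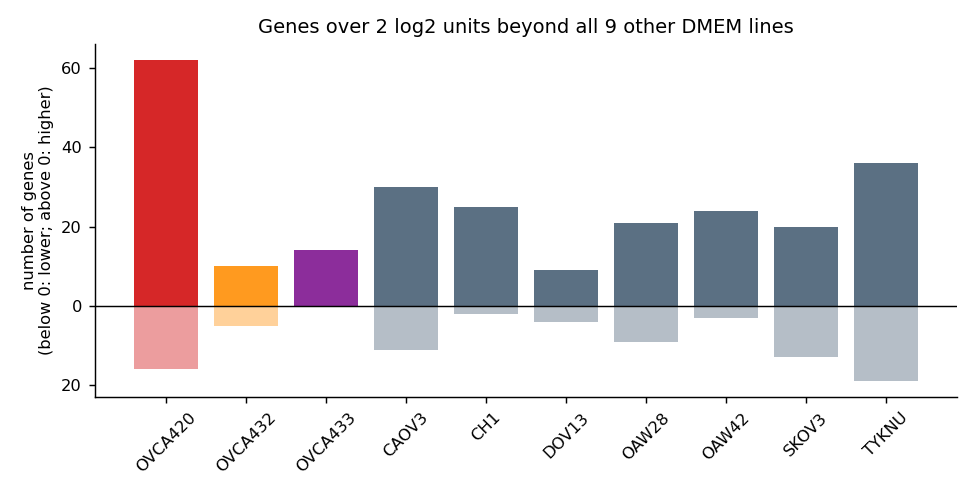
Number of genes (y axis) over 2 log2 units above (dark, upward) or below (pale, downward) all 9 other DMEM lines for each line (x axis). OVCA420 has 62 above and 16 below, OVCA432 has 10 and 5, and OVCA433 has 14 and 0.

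The genes described for OVCA420 were chosen after their values were seen or belong to the lists. OLFM4, a secreted stem cell marker of the intestinal crypt, was 11.18 in OVCA420, against 3.70 to 4.34 in the other 9 DMEM lines. CEACAM6, a carcinoembryonic adhesion molecule, was 10.30, against 3.93 to 4.56, and LGALS4, a galectin of the gut, 9.88, against 5.75 to 6.31. TSPAN8, a tetraspanin of gastrointestinal tumours, was 7.73, against 2.28 to 3.40. CEACAM5, the carcinoembryonic antigen, was 7.15 in OVCA420, against 4.16 to 4.96. ALDH1A1, a retinaldehyde dehydrogenase, was 12.40, against 3.99 to 7.23, AKR1B10, an aldo-keto reductase under NRF2, 10.59, against 3.15 to 5.71, and ABCC2, an export pump of conjugates, 10.09, against 4.33 to 5.87. The left-out array of OVCA420, which was not used for these counts, read 7.51 for OLFM4, 8.63 for CEACAM6, 10.20 for LGALS4, 4.82 for TSPAN8, 6.09 for CEACAM5, 9.77 for ALDH1A1, 8.88 for AKR1B10 and 7.23 for ABCC2, each also above the other 9 DMEM lines. The 18 lines of other media reached 9.86 for OLFM4 (JHOS4) and 9.40 for CEACAM6 (OV7), 12.17 for ALDH1A1 (TOV112D), 8.76 for TSPAN8 (OV7) and 7.93 for AKR1B10 (COLO720E). They reached 8.17 for LGALS4, 8.30 for ABCC2 and 5.45 for CEACAM5, each in OVCAR2. OVCAR2 also had 7.59 for CEACAM6, 7.92 for TSPAN8, 9.48 for ALDH1A1 and 6.74 for AKR1B10. It thus held most of this set above the other 9 DMEM lines, but not OLFM4 (4.03). CEACAM6, LGALS4 and CEACAM5 belong to the list of gastrointestinal, mucinous and clear cell markers. Not all genes of that list were high in OVCA420. CDH17 was 5.5, under the background level of OVCA420 (5.64), against 3.34 to 3.86 in the 7 other DMEM lines. REG4 was lower in all 3 OVCA lines than in those 7 (4.09 to 4.66). Of the list's 14 measured genes, 11 had a positive difference over the 3 OVCA lines. The median was 0.15, and -0.21 without OVCA420. Below the other lines in OVCA420 were FAR1, the reductase that makes fatty alcohols for ether lipids, at 4.82, against 9.25 to 10.31 in the other 9, and RNF130, a ubiquitin ligase, at 4.09, against 8.50 to 9.74. The left-out array read 5.47 and 5.35 for these. It also read far below the OVCA420 array used for other genes, such as YME1L1 (6.88 against 10.71) and GABPA (4.60 against 7.99). For some genes it read higher, such as NAT9 (9.19 against 8.57). Among these were genes of low level in the array used, such as KDR (6.13 against 3.84) and FAP (5.61 against 4.06). Its low readings are therefore not taken as separate evidence for FAR1 and RNF130, nor its high readings for the genes high in OVCA420. Its 4.82 for TSPAN8 was also under the background level of OVCA420 (5.64). IFITM3, an interferon-induced membrane protein gene, was 6.15 in OVCA420, against 8.99 to 10.62. BST2, the interferon-stimulated gene of tetherin, was 3.82 in OVCA420, 6.45 in OVCA432 and 8.27 in OVCA433, against 5.81 to 10.07 in the 7 other DMEM lines.

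In OVCA432, GRIA2, a glutamate receptor gene, was 7.0, against 3.15 to 3.96 in the other 9 DMEM lines, and KRT23, an epithelial keratin, was 8.85, against 4.38 to 6.15. WT1 was in this set at 9.62. Lines of other media reached 11.55 for KRT23 (PEO1), 9.76 for WT1 (OV17R) and 5.01 for GRIA2 (COLO720E). The genes below the other 9 DMEM lines in OVCA432 were FNDC3A, KITLG, RCBTB1, S100A10 and S100A11. S100A11, a calcium-binding protein gene, was 7.93, against 10.12 to 12.19. FNDC3A at 4.99, against 7.84 to 9.19, and RCBTB1 at 5.42, against 7.74 to 8.70, both lie on chromosome 13, and so does SETDB2, a histone methyltransferase gene, at 3.49, against 5.32 to 6.87. RB1, the retinoblastoma tumour suppressor gene on the same chromosome, was 4.40 in OVCA432 and 4.76 in CAOV3, while the other 8 DMEM lines had 7.78 or more. The stretch from ELF1 to RCBTB1 was then looked at as a whole, a choice made after these values were seen. Of its 38 genes above background, OVCA432 was the lowest of the 10 lines in 28, with a median difference of -1.26 from the median of the 9 other lines. In the remaining 191 genes of chromosome 13 it was the lowest in 47, with a median of -0.16. Low values of OVCA432 did not end at the borders of the stretch. COG6 (-1.85) and SLC25A15 (-1.54) on one side and KPNA3 (-1.14) and DLEU2 (-2.12) on the other were low too. Smaller differences lay among them, such as FOXO1 (-0.24) and EBPL (-0.51). No other line had a median under -0.36 in the stretch, and OVCA420 and OVCA433 were at 0.43 and -0.01. DNA copy number was not measured in the files used here.

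Of the 14 genes above the other lines in OVCA433, 5 are described. NLRP10, a gene of the NOD-like receptor family, was 8.30, against 4.66 to 5.16 in the other 9 DMEM lines. SERPINA1, the gene of alpha-1 antitrypsin, was 9.14, against 5.21 to 6.88. CD274, which codes for the checkpoint ligand PD-L1, was 8.64, against 3.93 to 6.54, and IL1B, the cytokine, was 7.96, against 4.24 to 5.82. SRGN, a proteoglycan of secretory granules known from blood cells, was 12.69, against 5.54 to 10.66. Lines of other media exceeded OVCA433 for SERPINA1 (10.03 in JHOS2), CD274 (8.97 in OVCAR5) and IL1B (9.94 in OVCAR5). For NLRP10 and SRGN they reached 8.10 (UWB1.289) and 10.88 (HEY), under OVCA433. The mean level of the leukocyte markers was 4.59 to 4.66 in the OVCA lines and 4.52 to 5.39 in the others.

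Genes lower in all 3 OVCA lines gathered on chromosome 14, a pattern noticed in the data. Of 587 genes of that chromosome, 26 lay below all 7 other DMEM lines (4.43%) and 2 above, whereas 116 of 17767 genes elsewhere lay below (0.653%). No other chromosome had over 2.16% on the lower side. Among the 436 genes of chromosome 14 above background, 336 had a lower mean in the OVCA lines (77.1%), against 49.6% of 13625 genes on the other chromosomes, and the median difference was -0.27, against 0 elsewhere. Of the 24 genes above background that did not overlap, 17 lay within a run of 100 neighbouring genes from KLHDC2 to RAD51B. This run was chosen as the one holding the most such genes, so its values are a description of that choice. In that run 88 of 100 differences were below 0, and the median level relative to the mean of the 7 lines was -0.63 in OVCA420, -0.53 in OVCA432 and -0.53 in OVCA433, against -0.24 (TYKNU) to 0.24 (OAW42) in the 7 others. Of the other 336 genes of the chromosome above background, 248 were lower on average (73.8%), with a median difference of -0.20, and 7 did not overlap on the lower side. The sizes were modest and alike in many genes with unrelated roles. CGRRF1, a ubiquitin ligase gene, had the lowest p on the lower side. It was 4.91, 5.22 and 5.44 in the OVCA lines, below the background level of each (5.64, 5.25 and 5.48). The others had 5.75, 6.13 and 6.32 (lowest, median and highest), a difference of -0.87 ± 0.15 (SE). RTRAF, an RNA-binding factor, was 9.26, 9.24 and 9.29, against 9.78 to 10.45. CNIH1, a cargo receptor of the secretory pathway, was 9.44, 9.11 and 9.34, against 9.75 to 10.04. SOCS4, a suppressor of cytokine signalling, was 7.17, 7.37 and 7.02, against 7.69 to 8.18. EXOC5, an exocyst subunit, was 8.57, 8.55 and 8.22, against 8.95 to 9.82, and PSMA3, a proteasome subunit, was 9.40, 9.68 and 9.80, against 9.94 to 10.88. HIF1A, the oxygen-regulated transcription factor, had the largest difference among the 24, at 10.27, 9.90 and 9.89, against 10.28, 11.60 and 12.58 (-1.53 ± 0.46, SE). TYKNU at 10.28 was level with OVCA420 for HIF1A. No gene of the chromosome passed the test (adjusted p = 0.959 for each of the 24).

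**Figure D4:**
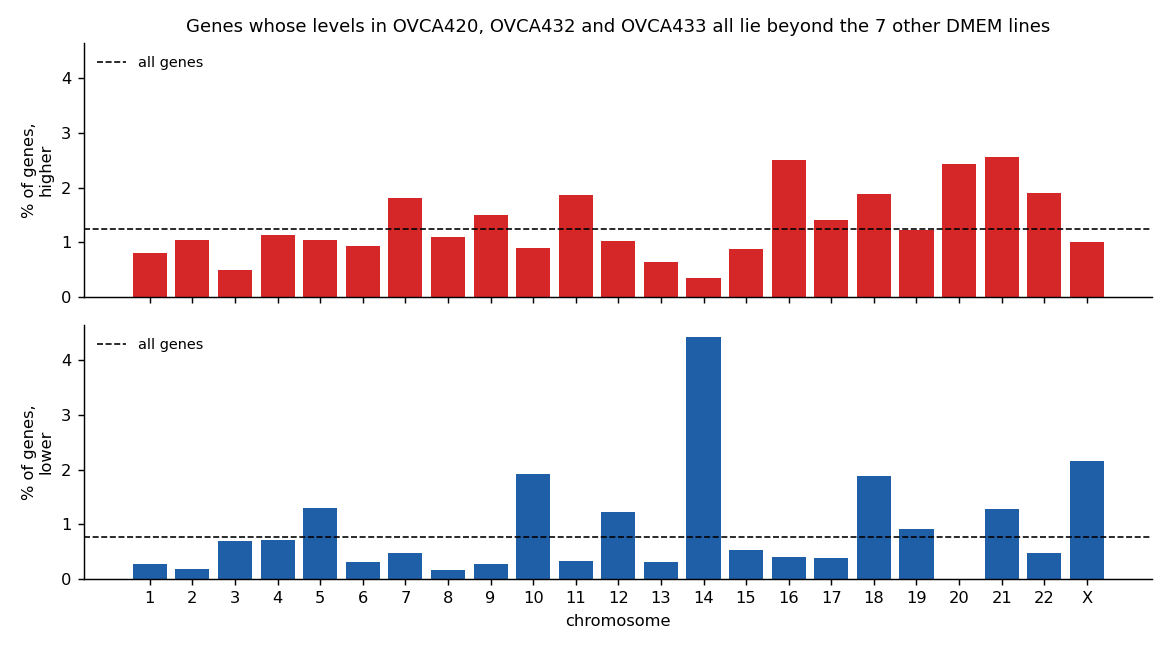
Share of each chromosome's genes (y axis, percent) whose levels in OVCA420, OVCA432 and OVCA433 all lie above (upper panel) or below (lower panel) the 7 other DMEM lines, with the share of all genes as a dashed line. The x axis gives the chromosome. Chromosome 14 has 4.43% below, and chromosome X is next with 2.16%.

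The OVCA lines were less apart among all 28 lines. Taking the median deviation of chromosome 14 genes from their medians over the 28 lines, OVCA420 was the lowest line at -0.38, but HEYC2 at -0.29, OV17R at -0.23 and DOV13 at -0.16 came before OVCA432 at -0.12, and OVCA433 at -0.10 was the eighth from the lowest. Against the 18 lines of other media, 0 genes of chromosome 14 lay below all lines, in a comparison where 9 of all genes did. HEYC2 and OV56, among those 18, each hold an array of narrow spread over genes (SD 1.844 and 1.893) that was kept in their means, and its part in their values was not tested. Without OVCA433 the count on chromosome 14 was 68 of 606 over all genes, without OVCA432 58 of 588, without DOV13 41 of 251 and without TYKNU 41 of 216, where the comparison of all lines gave 26 of 142.

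**Figure D5:**
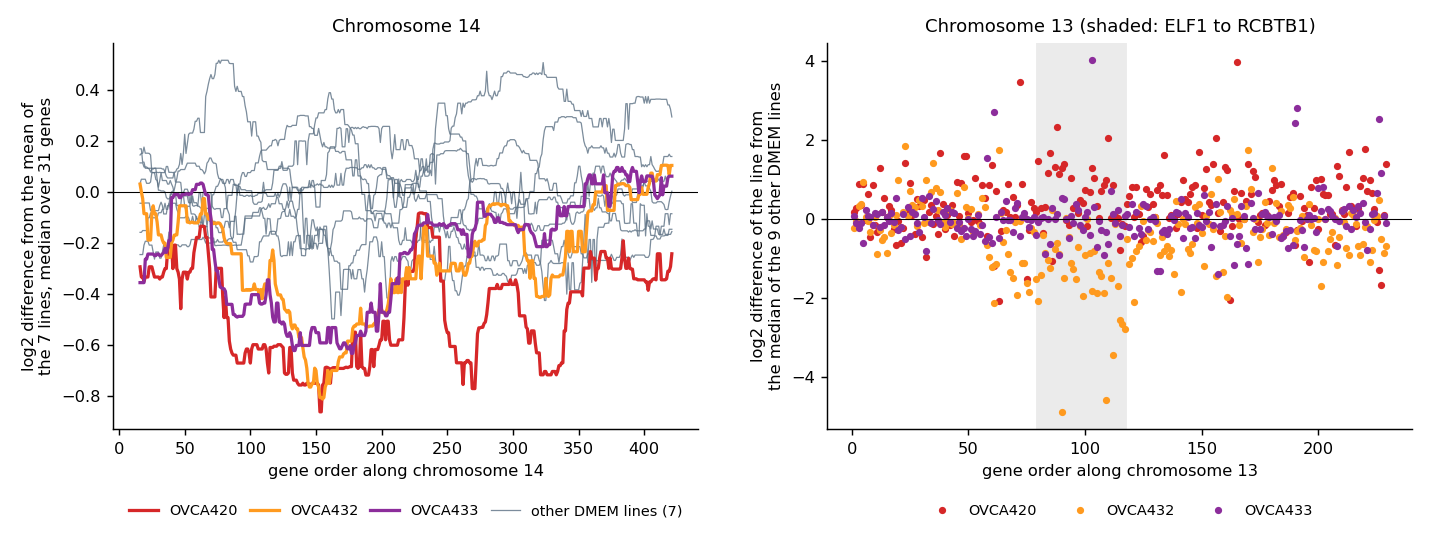
Left, running median over 31 neighbouring genes of chromosome 14 of the log2 difference from the mean of the 7 other DMEM lines, by gene order, for OVCA420, OVCA432 and OVCA433 (colour) and those 7 (thin). Right, log2 difference of each OVCA line from the median of the 9 other DMEM lines for single genes of chromosome 13, by gene order, with the stretch from ELF1 to RCBTB1 shaded. On the left all 3 OVCA lines lie low in the middle of the chromosome, and on the right OVCA432 lies low in the shaded stretch, with a median of -1.26.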

How the data were processed

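Total RNA of 28 lines was hybridised to 56 Affymetrix Human Gene ST arrays. The authors deposited log2 intensities (1.35 to 14.89) made by RMA with affy 1.42.3, as the submitters' processing notes give it. Which arrays were normalized together is not given in the sources used here. RMA fits probe sets over arrays, so an odd array can touch the others.

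Of 28869 probe sets, 19310 carry 1 gene of the platform annotation (19279 matched by gene ID), 1752 several and 7807 none listed. The highest-mean probe set was kept for the 684 genes with several. Y-linked genes and XIST (23) were left out, which leaves 18354 genes. Several list genes were not measured by a probe set of 1 gene. Arrays of a line were averaged, 1 array labelled JHSO4 being taken as JHOS4, a line of another medium, and the 3 lines were compared with 7 by limma 3.58.1 (R 4.3.3, trend and robust eBayes, two-sided, Benjamini-Hochberg over all genes). The fit was tested on simulated data. Other steps used Python 3.11.15, pandas 2.3.3 and matplotlib 3.10.9. Motifs were searched in RefSeq promoters of GRCh38.p14 (250 bases before to 50 after the start, the first listed promoter of a gene), and gene order came from the same annotation. Precision is limited by how many lines and arrays there are.

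The lines, the 39 gene lists and the 16 fixed genes were chosen with earlier results of these data known. Named were the fixed genes, the 15 non-overlapping genes with the lowest p and the 10 with the largest gap in each direction, and at most 4 genes per list, those that differed most, which makes 185 genes. 19 others (OLFM4, ALDH1A1, TSPAN8, GRIA2, IL1B, CD274, SRGN, NLRP10, HIF1A, IFITM3, FAR1, RNF130, FNDC3A, RCBTB1, SETDB2, S100A11, DLGAP5, CNIH1 and PSMA3) and the genes named for small counts were named after their values were seen. Alternatives covered the left-out array, single arrays, each line left out, the insulin lines, probe sets, a filter on low levels, normalization, the replicate block and the lines of other media.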

Additional observations from a re-analysis of the deposited data

Results flagged for a closer look

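Among the 7 other DMEM lines, 10 values of the genes described stood apart from the rest of their group by a gap that was a large part of the range (Dixon's criterion for 7 values). Chance marks about 1 in 20 groups, and 89 genes were looked at. They were UBB and UBBP4 in OAW42 (13.17 and 12.33, 0.55 and 0.40 above the next line), AKR1B10 in TYKNU (5.71), SRXN1 in TYKNU (9.79), ALDH1A1 in OAW28 (7.23), KLK5 and KLK7 in CAOV3 (10.50 and 7.42), and, at the low end, KRT23 and TSPAN8 in SKOV3 (4.38 and 2.28) and RB1 in CAOV3 (4.76, 3.02 below the next line).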

How the results depend on the processing

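In no alternative was more than 1 gene called. With the replicate block (the arrays as units, the replicate number as a term and the line as a random block) 1 gene, FBXO32, was higher, and without OVCA420 1 gene, UBB, was lower, so that leaving out a line gave 0 to 0 genes higher and 0 to 1 lower. The block was tried although replicate numbers do not pair the arrays: the deviations of arrays with the same number correlated at -0.225 to 0.199 (median 0.0151) over 36 pairs of 9 lines. The counts of genes with no overlap moved more. On the higher side, 228 became 523 with the left-out OVCA420 array kept, 150 with array 1 alone, 127 with arrays centred on their medians, 139 with low genes filtered out, 443 without the insulin lines, 2 against the 18 lines of other media and 1 against all 25 other lines. On the lower side, 142 became 231 with the left-out array kept, 274 without the insulin lines, 9 against the other media and 7 against all 25. Leaving out a line gave 266 to 693 higher and 181 to 606 lower, the highest counts without OVCA432 and OVCA433, where fewer lines must lie beyond the others. Centring turned the split from 61.6% higher to 46.4%, and array 1 or 2 alone gave 52.6% or 55.9%. For chromosome 14 the count on the lower side was 17 after quantile normalization, 0 against the other media and 0 against all 25 lines, and 27 to 68 with a line left out. Over the alternatives the adjusted p of FBXO32 ran from 0.0468 to 1.

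Of 89 genes, 24 changed sign in some setting. With a line left out the difference ran from -0.92 to 1.96 for ABCC2, -1.06 to 2.66 for AKR1B10, -0.46 to 3.72 for ALDH1A1, -0.83 to 1.53 for CD274, -0.96 to 0.26 for CDH2, -0.44 to 0.87 for CDKN2A, -0.19 to 1.24 for CEACAM5, -0.32 to 2.87 for CEACAM6, -1.63 to 0.46 for FNDC3A, -0.13 to 0.97 for GCLM, -0.19 to 1.73 for GRIA2, -0.47 to 1.39 for IL1B, -0.41 to 2.92 for ITGB6, -0.31 to 1.41 for KLK7, -0.33 to 1.74 for LGALS4, -0.35 to 3.39 for OLFM4, -0.90 to 1.30 for PAX8, -1.83 to 0.78 for RB1, -1.45 to 0.40 for S100A11, -1.86 to 1.32 for SRGN, -0.46 to 2.08 for TSPAN8, -1.93 to 1.10 for VIM and -0.53 to 1.27 for WT1. Against the other media CDH2 was at 0.22, ERBB2 at 0.35 and CDKN2A at -0.61. CDKN2A was at -0.04 with array 2 alone and -0.02 with the replicate block, and SRGN at -0.01 without the insulin lines. With 1 array of each line, 8 genes rather than 5 set OVCA432 below the other lines. The cause was not tested.

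The limits are those of 3 lines against 7. A common difference smaller than the spread between lines cannot be detected, OVCA420 rests on 1 array, and the insulin in 2 of the 7 media cannot be told apart from those lines.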

Other observations

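SRXN1 and GCLM, targets of the oxidative stress factor NRF2, were higher in the OVCA420 array used than in the other 9 DMEM lines. The left-out array of OVCA420 did not repeat this. It read 9.44 for SRXN1, under TYKNU at 9.79, and 7.61 for GCLM, under all 9 other lines. SRXN1, which codes for sulfiredoxin, was 11.02 in OVCA420, 8.93 in OVCA432 and 9.37 in OVCA433, against 8.54 to 9.79 in the other DMEM lines. GCLM, a subunit of the enzyme that limits glutathione synthesis, was 10.70, 8.50 and 8.56, against 7.99 to 9.91. Of 20 genes of this list, 15 had a positive difference and the median was 0.28, but it was -0.70 without OVCA420 and 1.01 without OVCA432.

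Interferon-stimulated genes gave no common direction: of 29 measured, 14 were higher in the OVCA lines and the median was -0.01. IFI44 was 6.59, 8.93 and 7.29, against 3.61 to 8.92, and IFITM1 was 10.01 in OVCA432 and 5.28 and 5.55 in OVCA420 and OVCA433, against 4.93 to 10.84. The integrin gene ITGB6 was 11.65 in OVCA420, 4.97 in OVCA432 and 8.36 in OVCA433, against 4.87 to 10.37.

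Among all 28 lines, UBB had 2 separate levels. OVCA432, OVCA433 and OV17R lay between 8.15 and 8.67, and the other 25 lines between 11.84 and 13.18.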
